A study of Mus musculus with 12 samples.

Results

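A set of 10 collagen genes that build networks, beaded filaments or the surface of other fibrils were followed in primary mouse chondrocytes. They were Col4a1, Col4a2, Col6a1, Col6a2, Col6a3, Col8a1, Col8a2, Col12a1, Col14a1 and Col15a1. They were chosen by name, as members of these collagen classes, with earlier results of these data known. Each symbol matched 1 of the 57010 Ensembl gene IDs in the tables. All 10 passed the filter on low counts, among 14253 genes tested.

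Collagens are made of 3 chains wound into a triple helix, and most of the collagen in cartilage is fibrillar. Type IV collagen, from Col4a1 and Col4a2, forms the sheet-like network of basement membranes, and in cartilage it is found in the matrix just around the chondrocyte. Type VI, from Col6a1, Col6a2 and Col6a3, assembles into beaded filaments and marks the same pericellular matrix. Type VIII, from Col8a1 and Col8a2, is a short-chain network collagen known from Descemet's membrane and vessel walls. Types XII and XIV sit on the surface of fibrils, and type XV, which carries an endostatin-like end, lies next to basement membranes.

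The cells, labelled primary chondrocytes, had 1 genotype in every group, labelled Wild type. Of 12 libraries, 4 are labelled Control, 4 WT and 4 SIRT5F101L mutant. The last 2 groups were transfected with a wild-type or a SIRT5F101L plasmid, and the wild-type plasmid is read here as wild-type SIRT5, a sirtuin of the mitochondria that strips acidic acyl groups off lysines. The labels do not say what the control cells received, how many animals gave the cells, their age, or whether libraries of a group came from separate cultures. The p-values therefore measure the spread between these libraries, which may be technical. Replicate numbers follow the order of deposition and pair nothing.

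Libraries held 15095357 to 24242139 counts. The collagens studied here took 0.631% to 0.752% of them in control, 0.570% to 0.692% in WT and 0.553% to 0.710% in SIRT5F101L libraries. All 13 chondrocyte markers were detected. Their summed level was 9294 to 11660 CPM (counts relative to library size, scaled by edgeR's TMM factors) in control, 2851 to 2964 in WT and 2321 to 2566 in SIRT5F101L libraries. On the second principal component, SIRT5F101L replicate 1 lay at 20.3, beside the highest of the WT libraries (-1.07 to 20.1) and away from the other SIRT5F101L libraries (-23.5 to -17.0). Over gene counts, its median chi-square relative to sampling noise was 2.61 to 6.27 against WT libraries and 8.19 to 8.92 against its own group, whose other libraries were at 3.05 to 3.62 among themselves. Whether its label is right could not be settled from these values, so the calls among the 10 collagens are given with and without it. The slope of a library's log2 CPM on transcript length, in log2 units per doubling of length, was -0.0661 to -0.0438 in control. It was -0.0361 to 0.0521 in WT, 0.0809 to 0.103 in SIRT5F101L replicates 2 to 4 and -0.0588 in SIRT5F101L replicate 1. Sirt5 itself, the gene named on the plasmid, had 9 to 16 counts in control, 1 to 9 in WT and 9 to 19 in SIRT5F101L libraries. No rise of Sirt5 was detectable at this depth with the WT plasmid (log2 fold change -0.86, edgeR adjusted p 0.143) or the mutant plasmid (0.034, adjusted p 0.954).

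The upstream sequences of the type VI and type VIII genes are shown because chains of the same collagen moved together in 1 case and apart in others. They are the longest stretch without an exon in the 250 bases before the most upstream RefSeq start, 5′ to 3′ on the strand of the gene, in build GRCm38.p6. Capitals mark letters of GGGCGG, on either strand, or of the NF-kB consensus. The windows are chr10:76726169-76726294 on the minus strand for Col6a1 (126 bases), chr10:76623631-76623880 on the minus strand for Col6a2, and chr1:90843972-90844221 on the minus strand for Col6a3. They are chr16:57754738-57754987 on the minus strand for Col8a1 and chr4:126286544-126286792 on the plus strand for Col8a2.
Col6a1: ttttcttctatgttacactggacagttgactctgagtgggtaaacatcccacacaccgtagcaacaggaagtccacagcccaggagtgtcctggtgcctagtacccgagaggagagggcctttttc
Col6a2: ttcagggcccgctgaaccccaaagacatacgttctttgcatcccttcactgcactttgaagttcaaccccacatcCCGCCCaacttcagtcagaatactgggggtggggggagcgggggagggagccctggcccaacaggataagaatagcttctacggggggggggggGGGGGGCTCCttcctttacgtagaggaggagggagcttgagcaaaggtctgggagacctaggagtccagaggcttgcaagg
Col6a3: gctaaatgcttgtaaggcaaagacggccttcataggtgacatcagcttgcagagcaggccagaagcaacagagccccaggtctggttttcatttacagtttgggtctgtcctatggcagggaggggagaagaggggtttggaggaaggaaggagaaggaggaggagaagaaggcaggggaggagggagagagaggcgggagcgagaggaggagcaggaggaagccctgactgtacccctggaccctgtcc
Col8a1: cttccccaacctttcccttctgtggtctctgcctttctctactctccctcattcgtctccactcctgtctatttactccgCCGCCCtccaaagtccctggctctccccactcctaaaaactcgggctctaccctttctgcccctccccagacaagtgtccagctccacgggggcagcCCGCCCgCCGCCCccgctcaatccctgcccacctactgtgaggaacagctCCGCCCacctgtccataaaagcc
Col8a2: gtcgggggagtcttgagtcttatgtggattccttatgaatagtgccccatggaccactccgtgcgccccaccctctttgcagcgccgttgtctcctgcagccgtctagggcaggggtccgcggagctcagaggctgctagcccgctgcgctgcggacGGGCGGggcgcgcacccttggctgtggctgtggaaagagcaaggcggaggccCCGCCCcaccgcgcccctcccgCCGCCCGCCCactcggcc

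GGGCGG was matched 4 times in the Col8a1 window and 4 times in the Col8a2 window, with overlapping matches counted apart, so the type VIII genes did not differ in this count. It was matched once in the Col6a2 window, which also held the 1 match to the NF-kB consensus, and not in the Col6a1 or Col6a3 window. The CAAT box (letters CCAAT) had 0 matches on either strand of all 5 windows. The same held for the TATA box (letters TATAAA) and for the letters TGANTCA of an AP-1 site. Of 32851 promoters with 250 bases upstream, 32.7% held GGGCGG, 33.8% the CAAT box letters and 12.4% the TATA box letters. The AP-1 letters were in 6.75% and the NF-kB consensus in 7.25% of them. These matches are letters in a window and no measure of binding. The RefSeq starts of Col4a1 and Col4a2 lie 21 bases apart on opposite strands.

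Against control, 7 of the 10 collagens changed with the WT plasmid, 3 upwards and 4 downwards, where 56.8% of all tested genes were called (28.7% higher and 28.1% lower). Col8a2 fell 70.3-fold, Col14a1 7.07-fold, and Col6a1 and Col6a2 2.27-fold each. Col4a1, Col6a3 and Col8a1 rose by 1.26-fold to 1.28-fold. Col4a2, Col12a1 and Col15a1 did not pass the test. The 4 that fell did so by at least 2-fold. A called change of at least that size, in either direction, was found for 16.7% of all genes. With the SIRT5F101L plasmid the same 3 genes rose and the same 4 fell, where 60.7% of all tested genes were called (30% upwards, 30.7% downwards, and 17.5% by 2-fold or more). Both comparisons use the same 4 control libraries, so this overlap is not independent. Between the plasmids, with SIRT5F101L replicate 1 taken as labelled, edgeR called 0 of the 10 collagens, and 0.0421% of all tested genes (0.0281% higher, 0.014% lower, and 0.014% by at least 2-fold). Of the 10, 1 had an unadjusted p under 0.05, as did 11.9% of all genes, and DESeq2 called 0. Without SIRT5F101L replicate 1 the same 3 rose and the same 4 fell against control with either plasmid, where 60.2% (WT) and 63.2% (SIRT5F101L) of all genes were called. With each library's trend of log2 CPM on transcript length as an offset, 3 rose and 5 fell with WT, and 1 (Col8a1) rose and 6 fell with SIRT5F101L, where 57.9% and 60.2% of all genes were called.

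A share of 7 in 10 lies near the share of all genes called in either comparison with control. The collagens' median log2 fold change was -0.063 with WT and -0.001 with SIRT5F101L, against -0.013 and -0.017 over all tested genes. Their median absolute change was 0.35 and 0.41, against 0.37 and 0.40 over all. The groups did not overlap for 7 collagens with WT, as for 53.5% of all genes, and for 5 with SIRT5F101L, as for 51.3% of all genes. In these bulk libraries, fewer cells of a type and less RNA per cell cannot be told apart.

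**Figure D1:**
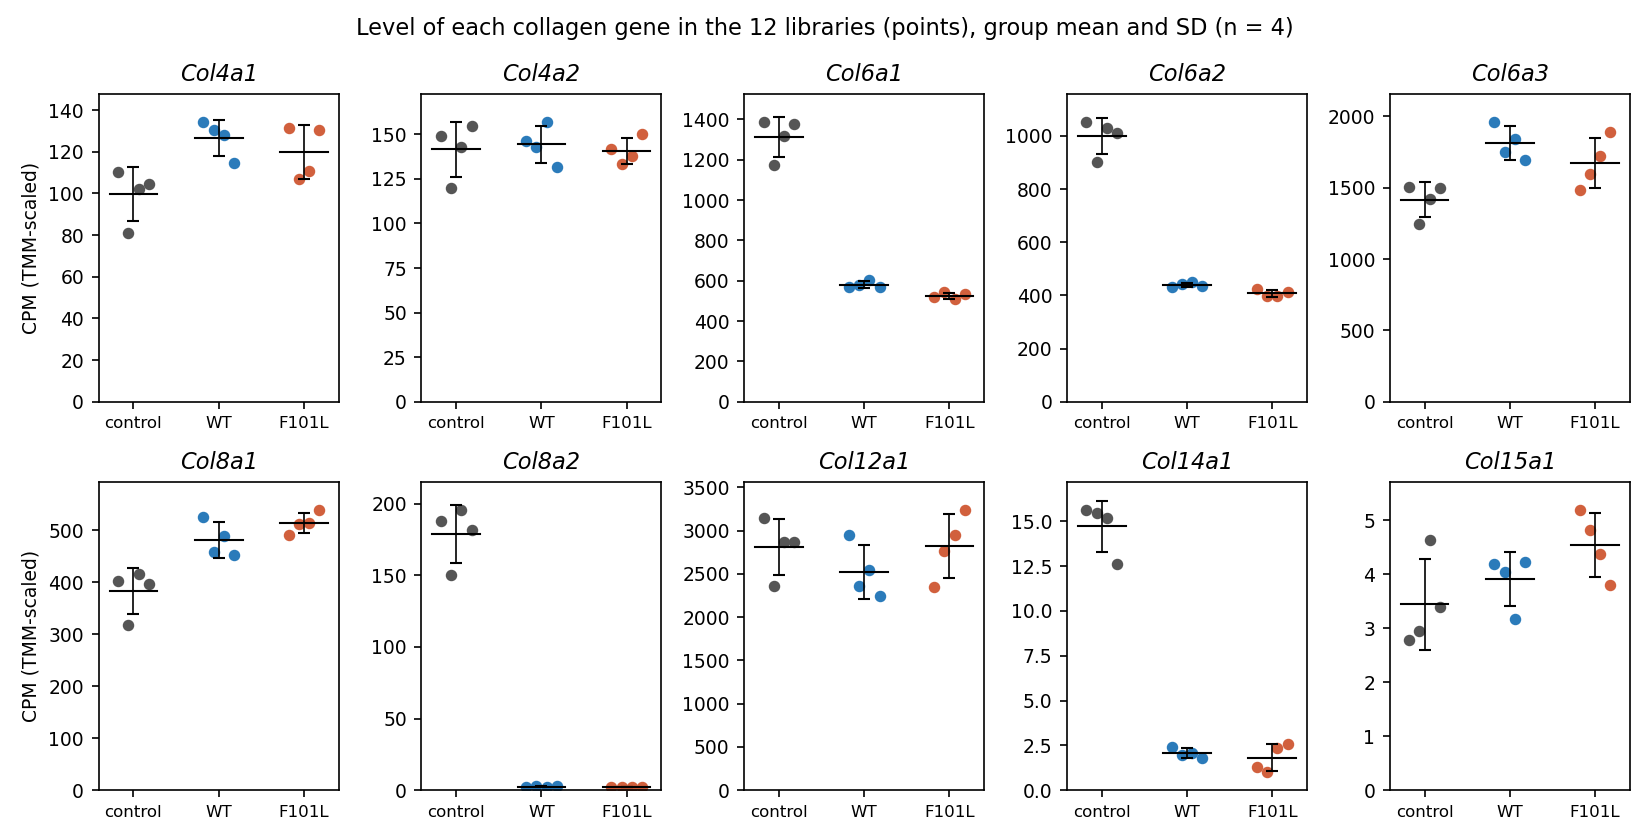
Level of each collagen gene (vertical axis, TMM-scaled CPM from 0) in control, WT and SIRT5F101L (F101L) libraries; points are libraries, lines and bars the group mean and SD (n = 4). Col8a2 lies at 150 to 196 CPM in control and at 2.01 to 2.83 CPM in all 8 plasmid libraries, while Col4a2 and Col12a1 overlap in all 3 groups.

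Among the network collagens, Col4a1 (ENSMUSG00000031502) codes for the alpha1 chain of type IV, the more abundant chain of the trimer. Its level was 111, 80.9, 102 and 105 CPM in control, 135, 130, 128 and 114 CPM in WT, and 131, 107, 111 and 130 CPM in SIRT5F101L libraries. All WT libraries lay above all control libraries, while the lowest 2 SIRT5F101L libraries lay beside the highest control library. Col4a1 rose with WT (log2 fold change 0.35, SE 0.0896, edgeR adjusted p 0.00251). It also rose with SIRT5F101L, by 0.27 on the log2 scale (SE 0.0896, edgeR adjusted p 0.0146), a call that ended without control replicate 2 (0.18, adjusted p 0.0705) or SIRT5F101L replicate 4 (0.22, adjusted p 0.0518). With the length offset the SIRT5F101L change was 0.084 (adjusted p 0.445).

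Col4a2 (ENSMUSG00000031503) codes for the alpha2 chain that joins 2 alpha1 chains in the common trimer. It was at 149, 120, 143 and 155 CPM in control, at 146, 143, 157 and 132 CPM in WT, and at 142, 134, 138 and 150.0 CPM in SIRT5F101L libraries. The 3 groups overlapped throughout. The log2 fold change was 0.029 with WT (95% interval -0.13 to 0.19, edgeR adjusted p 0.762) and -0.009 with SIRT5F101L (-0.17 to 0.15, adjusted p 0.929). Its sign turned under several alternatives, and with the length offset the SIRT5F101L change was -0.19 (edgeR adjusted p 0.0258).

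The ratio of Col4a2 to Col4a1 counts needs no library scaling. It was 1.35 to 1.48 in control, 1.09 to 1.23 in WT and 1.08 to 1.25 in SIRT5F101L libraries. The mean log2 ratio was lower by 0.32 with WT (difference -0.32) and by 0.27 with SIRT5F101L (difference -0.27). No plasmid library reached a control library, and both differences had an exact 2-sided permutation p of 0.0286, the smallest that 4 against 4 libraries allow, and an adjusted p of 0.0476 over 15 ratio tests. That adjusted p was 0.0536, past the threshold, with nothing added to the counts, and for WT also without WT replicate 2, 3 or 4. The same holds for the other ratios called against control: Col8a2 to Col8a1, Col6a3 to Col6a1 and Col14a1 to Col12a1. In GENCODE M21, 22 bases of Col4a1 exons (0.295%) also lie in Col4a2, and 65 bases of Col4a2 exons (0.982%) lie in Col4a1 or the predicted gene Gm15419.

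Col8a1 (ENSMUSG00000068196) and Col8a2 (ENSMUSG00000056174) code for the chains of type VIII, and they moved in opposite directions. Col8a1 was at 402, 317, 416 and 397 CPM in control, at 526, 459, 490 and 452 CPM in WT, and at 491, 512, 514 and 539 CPM in SIRT5F101L libraries. Every plasmid library lay above every control library. Col8a1 rose by 0.33 on the log2 scale with WT (SE 0.0758, edgeR adjusted p 0.000921) and by 0.42 with SIRT5F101L (SE 0.0758, edgeR adjusted p 7.03e-05).

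Col8a2 had 3239, 2957, 3673 and 3319 counts in control, and 46, 40, 43 and 55 counts in WT libraries. It had 44, 31, 57 and 42 counts in SIRT5F101L libraries. All 8 plasmid libraries were still above the 3-count floor. In CPM, the group means were 179 ± 20.1 in control, 2.54 ± 0.23 in WT and 2.26 ± 0.17 in SIRT5F101L (SD, n = 4). The log2 fold change was -6.14 with WT (a 70.3-fold fall, SE 0.106, edgeR adjusted p 6.62e-20) and -6.30 with SIRT5F101L (a 78.6-fold fall, SE 0.107, edgeR adjusted p 6.47e-20).

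The ratio of Col8a2 to Col8a1 counts was 0.457 to 0.473 in control, 0.00431 to 0.00626 in WT and 0.00394 to 0.00479 in SIRT5F101L libraries. It was 87.9-fold lower with WT and 105-fold lower with SIRT5F101L (exact permutation p 0.0286 and adjusted p 0.0476 for both, or 0.0536 under the alternatives named for type IV). Within control the ratio varied by an SD of 0.0215 on the log2 scale, the second smallest spread among the 5 ratios. As the upstream windows show, both type VIII genes hold 4 GGGCGG matches.

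Of the beaded collagens, Col6a1 (ENSMUSG00000001119) and Col6a2 (ENSMUSG00000020241), the short chains of type VI, fell together. Col6a1 was at 1390, 1175, 1316 and 1377 CPM in control, at 569, 579, 604 and 570 CPM in WT, and at 518, 543, 509 and 534 CPM in SIRT5F101L libraries. Col6a2 was at 1054, 901, 1028 and 1010 CPM in control, at 432, 441, 449 and 437 CPM in WT, and at 422, 398, 397 and 413 CPM in SIRT5F101L libraries. For both genes the lowest control library, replicate 2, was still above all plasmid libraries.

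Col6a1 fell by 1.18 on the log2 scale with WT (SE 0.0607, edgeR adjusted p 1.33e-12) and dropped by 1.32 with SIRT5F101L (SE 0.0609, edgeR adjusted p 2.15e-13). Col6a2 fell by 1.18 with WT (SE 0.0582, edgeR adjusted p 6.29e-13) and dropped by 1.29 with SIRT5F101L (SE 0.0583, edgeR adjusted p 1.51e-13). Their count ratio, Col6a2 to Col6a1, was 0.733 to 0.782 in control, 0.743 to 0.767 in WT and 0.733 to 0.815 in SIRT5F101L libraries. The mean log2 ratio differed by -0.003 with WT (exact permutation adjusted p 0.943) and by 0.028 with SIRT5F101L (adjusted p 0.56).

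Col6a3 (ENSMUSG00000048126), the long chain that joins each type VI monomer, did not fall with the short chains. It was at 1503, 1247, 1419 and 1500 CPM in control, at 1964, 1748, 1841 and 1692 CPM in WT, and at 1481, 1597, 1725 and 1887 CPM in SIRT5F101L libraries. WT lay wholly above control, and SIRT5F101L replicate 1 lay among the control libraries. Col6a3 rose with WT (log2 fold change 0.35, SE 0.0784, edgeR adjusted p 0.000699) and with SIRT5F101L (0.24, SE 0.0784, edgeR adjusted p 0.0128). The SIRT5F101L call ended without control replicate 2 (0.18, adjusted p 0.0533) or SIRT5F101L replicate 4 (0.175, adjusted p 0.0642). With the length offset the value was 0.22 with WT (edgeR adjusted p 0.00353) and -0.021 with SIRT5F101L (adjusted p 0.783).

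The count ratio of Col6a3 to Col6a1 was 1.06 to 1.09 in control, 2.97 to 3.45 in WT and 2.86 to 3.53 in SIRT5F101L libraries. It was 2.89-fold higher with WT and 2.94-fold higher with SIRT5F101L, with no overlap (exact permutation p 0.0286 and adjusted p 0.0476 for both, or 0.0536 under the alternatives named for type IV). Per kilobase of transcript, Col6a3 ran at 0.431 to 0.442 of Col6a1 in control and at 1.16 to 1.43 of it in the plasmid libraries, so the order of the chains turned.

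**Figure D2:**
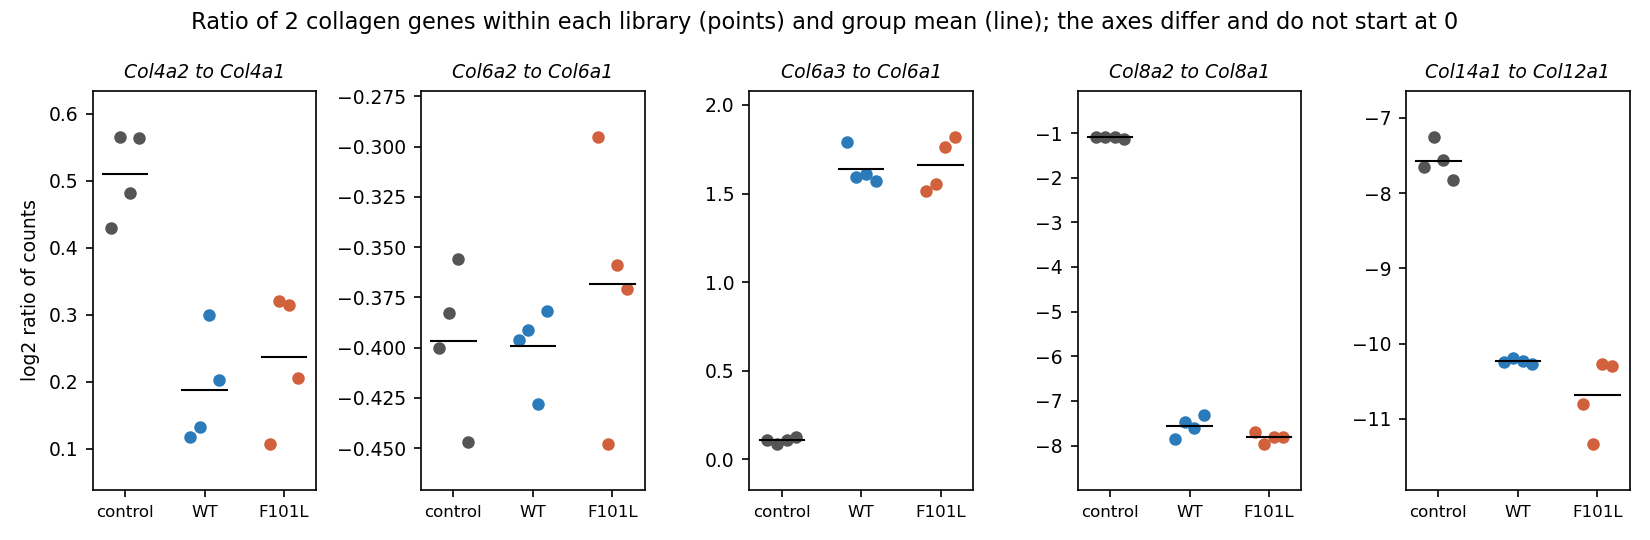
Log2 ratio of counts (vertical axis, a different range in each panel) for 5 pairs of collagen genes in each library; points are libraries and lines group means (n = 4). Col6a2 to Col6a1 overlaps in all 3 groups, Col6a3 to Col6a1 has means of 0.108 in control and 1.640 and 1.663 in the plasmid groups, and Col8a2 to Col8a1 has means of -1.098, -7.555 and -7.815.

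Col12a1 (ENSMUSG00000032332), which codes for the fibril-surface collagen XII of dense connective tissue and perichondrium, had the highest counts of the 10. It was at 3146, 2360, 2868 and 2866 CPM in control, at 2951, 2354, 2543 and 2249 CPM in WT, and at 2343, 2767, 2944 and 3238 CPM in SIRT5F101L libraries. The groups overlapped, and SIRT5F101L replicate 1 was the lowest of its group. The log2 fold change was -0.15 with WT (95% interval -0.36 to 0.056, edgeR adjusted p 0.202) and 0.007 with SIRT5F101L (-0.20 to 0.22, adjusted p 0.959). With the length offset, Col12a1 was lower with WT (-0.29, edgeR adjusted p 0.00102) and with SIRT5F101L (-0.27, adjusted p 0.00227).

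Its longest transcript, of 11511 bases, is the longest of the 10, followed by Col6a3 with 10106 bases. In the plasmid libraries the length slope and the Col12a1 level mostly moved together. The 3 SIRT5F101L libraries with slopes of at least 0.0809 had 2767 CPM or more, and SIRT5F101L replicate 1, with -0.0588, had 2343 CPM. The order was not strict, as SIRT5F101L replicate 2 (slope 0.091, 2767 CPM) lay below WT replicate 1 (0.0521, 2951 CPM). Among WT libraries, replicate 1 had the highest slope (0.0521) and the highest Col12a1, Col6a3 and Col4a1 levels. In SIRT5F101L libraries Col4a1 did not follow the slope, with 131 CPM in replicate 1 and 107, 111 and 130 CPM in replicates 2 to 4. Control libraries had slopes of -0.0661 to -0.0438 and Col12a1 levels of 2360 to 3146 CPM. The part of the length trend in the results was tested only through the offset values given here.

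**Figure D3:**
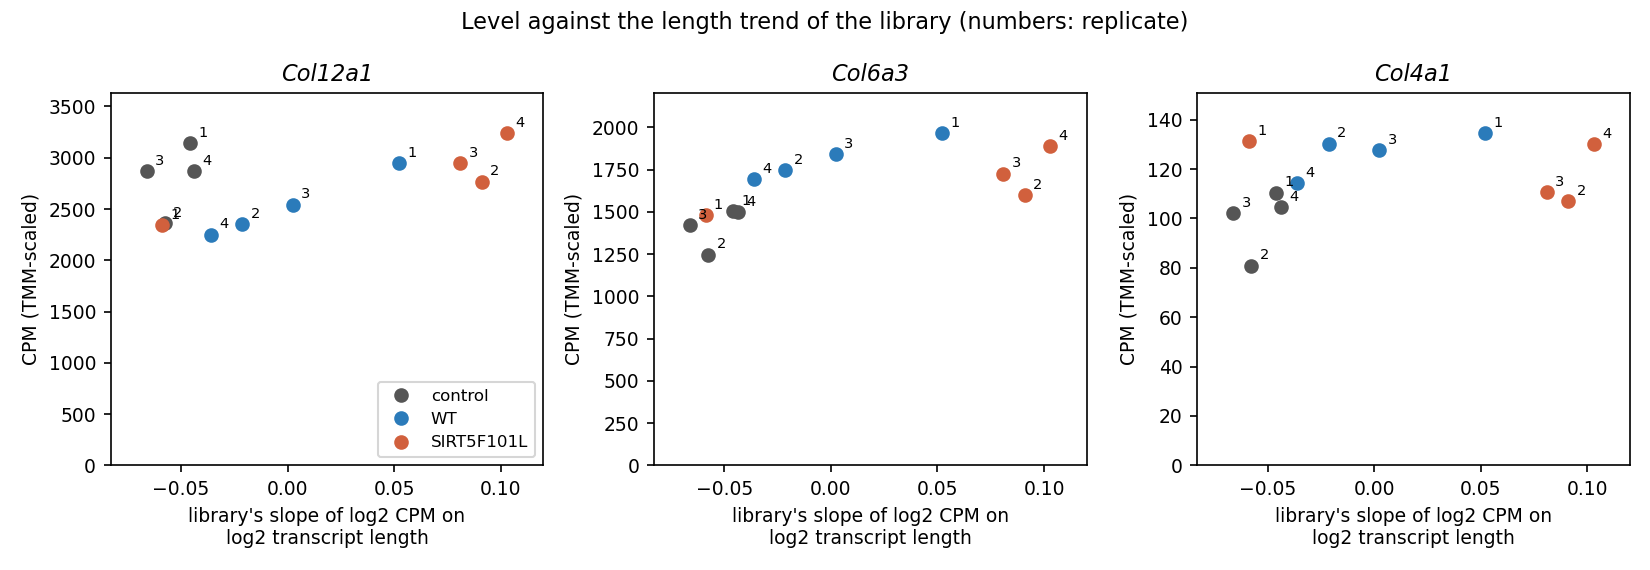
Level of Col12a1, Col6a3 and Col4a1 (vertical axes, TMM-scaled CPM from 0) against the length slope of its library (horizontal axes, log2 CPM per log2 base of transcript); points are libraries, numbered by replicate. SIRT5F101L replicate 1, at a slope of -0.0588, lies within the control slopes, while the other 3 SIRT5F101L libraries lie at 0.0809 to 0.103.

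Col14a1 (ENSMUSG00000022371) codes for collagen XIV, which also sits on fibrils and binds decorin. It had 269, 305, 285 and 231 counts in control, 49, 31, 36 and 35 in WT, and 24, 16, 59 and 45 in SIRT5F101L libraries. In CPM these were 15.6, 15.5, 15.2 and 12.6 in control, 2.42, 1.99, 2.08 and 1.80 in WT, and 1.28, 1.04, 2.37 and 2.55 in SIRT5F101L. Control stood far above both plasmid groups, which overlapped, with SIRT5F101L replicates 1 and 2 lowest. Col14a1 fell by 2.82 on the log2 scale with WT (SE 0.196, edgeR adjusted p 1.55e-10) and dropped by 2.99, or 7.93-fold, with SIRT5F101L (SE 0.197, edgeR adjusted p 6.83e-11).

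Set against Col12a1 in the same library, Col14a1 counts were 0.00440 to 0.00655 of Col12a1 counts in control. They were 0.000800 to 0.000845 in WT and 0.000376 to 0.000804 in SIRT5F101L libraries. The ratio was 6.32-fold lower with WT and 8.60-fold lower with SIRT5F101L (exact permutation p 0.0286 and adjusted p 0.0476 for both, or 0.0536 under the alternatives named for type IV).

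Col15a1 (ENSMUSG00000028339), for the basement membrane-bound collagen XV, was the least abundant per length in control. It was at 2.79, 2.94, 4.63 and 3.39 CPM in control, at 4.19, 4.04, 3.18 and 4.22 CPM in WT, and at 5.19, 4.81, 4.37 and 3.798 CPM in SIRT5F101L libraries. Control replicate 3 lay among the plasmid libraries, and all groups overlapped. The log2 fold change was 0.18 with WT (95% interval -0.20 to 0.57, edgeR adjusted p 0.414) and 0.40 with SIRT5F101L (0.014 to 0.78, adjusted p 0.0678). The SIRT5F101L value passed the test without control replicate 3 (0.57, edgeR adjusted p 0.0123) or without SIRT5F101L replicate 4 (0.47, adjusted p 0.0465).

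**Figure D4:**
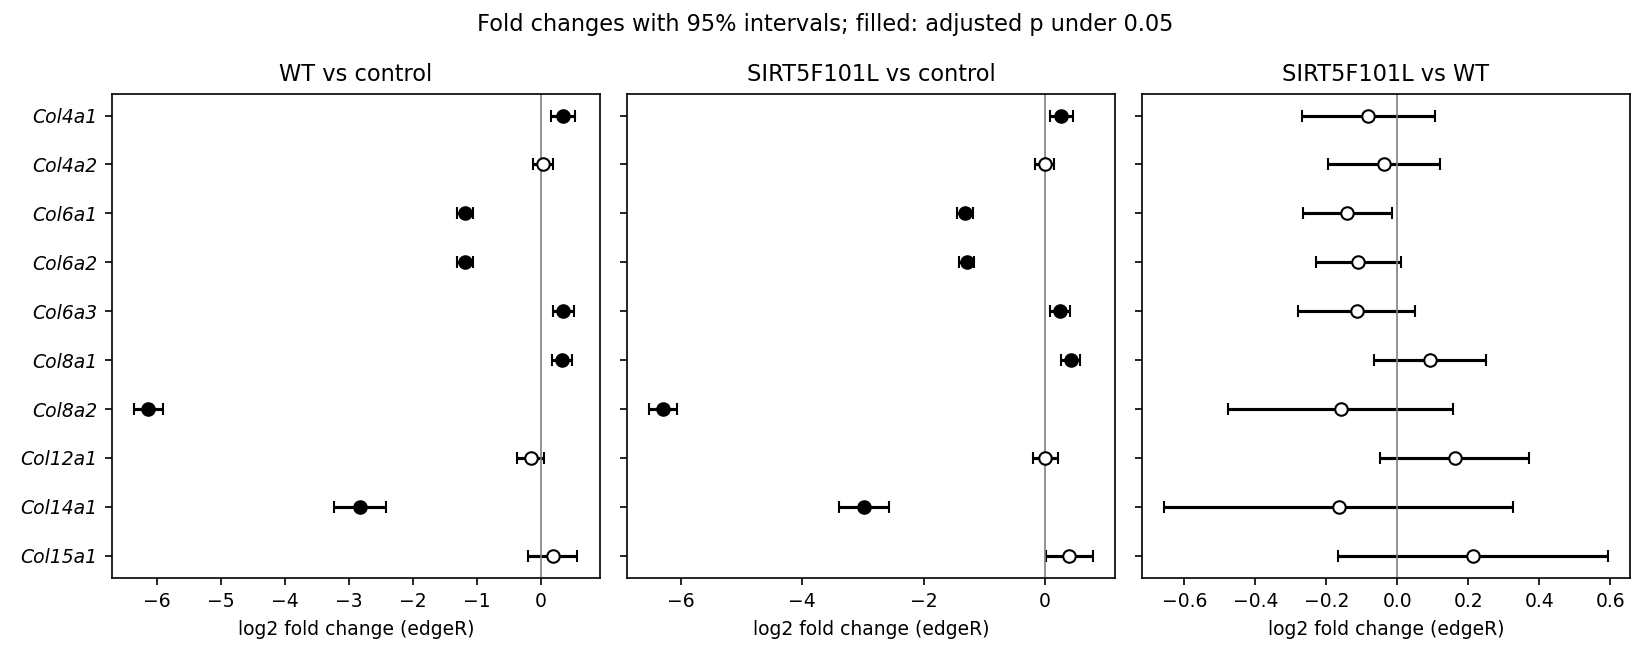
Log2 fold change (horizontal axis, a different range in each panel) of each collagen gene in the 3 comparisons, with 95% intervals from edgeR; filled points have an adjusted p under 0.05. Of the 10 genes, 7 are filled against control with either plasmid and 0 between the plasmids, where the intervals of 9 genes include 0.

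The order of the genes by CPM per kilobase of longest transcript is a description of levels. In control it ran Col6a1 (321), Col12a1 (244), Col6a2 (203), Col6a3 (140), Col8a1 (75.0), Col8a2 (41.3), Col4a2 (21.9), Col4a1 (15.1), Col14a1 (2.28) and Col15a1 (0.665). Of these neighbours, the libraries of Col12a1 and Col6a2 overlapped and the others did not. In WT the first 5 were Col12a1 (219), Col6a3 (179), Col6a1 (142), Col8a1 (94.3) and Col6a2 (89.5), of which Col8a1 and Col6a2 overlapped. In SIRT5F101L the same 5 stood in the same order, at 245, 165.5, 128, 100.6 and 83.0, with no overlap between neighbours. Col8a2, sixth in control, was ninth in both plasmid groups (0.586 and 0.521 CPM per kilobase), below Col15a1 (0.756 and 0.878), with overlap between the pair in WT.

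Between the plasmids the question is what the F101L change in SIRT5 alters. Col6a1 was lower with SIRT5F101L than with WT by 0.14 on the log2 scale (log2 fold change -0.14, 95% interval -0.27 to -0.016), with an unadjusted p of 0.0294 and an edgeR adjusted p of 0.384. Col6a2 differed by -0.11 (-0.23 to 0.011, edgeR adjusted p 0.447). In these 2 genes the highest SIRT5F101L library lay below the lowest WT library. Groups that did not overlap, in either direction, were found for 4.02% of all tested genes. Neither Col6a1 nor Col6a2 passed the test.

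The intervals of the other 8 genes included 0. Col4a1 differed by -0.082 (-0.27 to 0.10), Col4a2 by -0.038 (-0.20 to 0.12), Col6a3 by -0.11 (-0.28 to 0.049) and Col8a1 by 0.093 (-0.065 to 0.25). Col12a1 differed by 0.16 (-0.049 to 0.37). For the low-count genes the intervals were wider: Col8a2 differed by -0.16 (-0.48 to 0.16), Col14a1 by -0.165 (-0.66 to 0.33) and Col15a1 by 0.21 (-0.17 to 0.59). These intervals leave room for changes of that size in either direction, so the plasmids are not shown to act alike.

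Without SIRT5F101L replicate 1, 1 of the 10 passed in this comparison. It was Col12a1, higher with SIRT5F101L by 0.24 on the log2 scale (SE 0.0835, edgeR adjusted p 0.0462), a gene that with the length offset and all libraries differed by 0.028 (adjusted p 0.911). Over all genes, leaving out that library raised the calls from 6 to 2213, which is 15.2% of the genes tested in that fit. The comparison of the plasmids thus depends on including that library.

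Of the 5 ratios, 1 passed between the plasmids. Col14a1 to Col12a1 was lower with SIRT5F101L by 0.44 (difference in mean log2 ratio -0.44, exact permutation p 0.0286, adjusted p 0.0476). The log2 ratios, with a small value added to each count, were separated narrowly. The lowest WT library was at -10.267 and the highest SIRT5F101L library at -10.269. The count ratios themselves overlapped, with WT replicate 4 at 0.0008003, below SIRT5F101L replicate 3 at 0.0008038. The separation thus came from the added value. The call ended with nothing added to the counts (adjusted p 0.0952) and when any 1 WT library was left out, and the difference was -0.224 without SIRT5F101L replicate 2. The other 4 ratios did not pass: Col4a2 to Col4a1 differed by 0.048, Col6a2 to Col6a1 by 0.031, Col6a3 to Col6a1 by 0.023 and Col8a2 to Col8a1 by -0.26 (exact permutation adjusted p 0.171 to 0.943). Leaving out 1 library made 2 of them pass: Col6a2 to Col6a1 without SIRT5F101L replicate 2 (0.058, exact permutation adjusted p 0.0429) and Col8a2 to Col8a1 without WT replicate 1 (-0.356, adjusted p 0.0476).

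Genes that surround these collagens were read from lists of their relatives, partners, receptors, processing enzymes and proteases. Of 83 tested genes in 6 lists, 22 rose and 41 fell with WT, and 26 rose and 42 fell with SIRT5F101L. Over all tested genes, 28.7% rose and 28.1% fell with WT, and 30% rose and 30.7% fell with SIRT5F101L. No list was tested as a set, so each count describes its genes. Between the plasmids edgeR called 0 of the 83, with 15 at an unadjusted p under 0.05, as were 11.9% of all tested genes. DESeq2, and edgeR with the length offset, called 1, Mmp3, which was higher with SIRT5F101L. Without SIRT5F101L replicate 1, 6 were higher and 7 lower with SIRT5F101L, near the share of 15.2% called over all genes in that fit; among them were the collagen chaperone Serpinh1 (lower) and the receptor Itga2 (higher).

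Of 19 other non-fibrillar collagens, 12 were tested, and Col4a5 and Col4a6 were listed at 0, as were all 2414 IDs on the X chromosome. With WT, 3 rose, 2 fell and 7 did not pass, with a median log2 fold change of 0.17. With SIRT5F101L, 4 rose, 1 fell and 7 did not pass. The share of all tested genes called was 56.8% with WT and 60.7% with SIRT5F101L. Col23a1, a transmembrane collagen, rose from 2.335 ± 0.38 to 16.8 ± 0.76 CPM with WT (log2 fold change 2.84, SE 0.123, edgeR adjusted p 7.61e-14). Col7a1, which forms anchoring fibrils under epithelia, rose by 1.37 (adjusted p 2.24e-06), and Col20a1, a relative of Col12a1 and Col14a1, fell by 0.95 (adjusted p 1.71e-05). The other 3 were named after their values were seen. Col6a5, a type VI chain related to Col6a3, had at most 2 counts in a control library and up to 18 in a plasmid library. Col22a1 was at -1.14 on the log2 scale with WT (edgeR adjusted p 0.0364) and at -0.93 with SIRT5F101L (adjusted p 0.0702). Col18a1, the closest relative of Col15a1, was at 0.26 with WT (edgeR adjusted p 0.0796) and at 0.32 with SIRT5F101L (adjusted p 0.0286). Neither gene was shown to differ between the plasmids (edgeR adjusted p 0.886 for Col22a1 and 0.86 for Col18a1). With the length offset Col22a1 passed with both plasmids, and by DESeq2 with neither. Without SIRT5F101L replicate 1, Col18a1 passed with WT and not with SIRT5F101L.

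Among 21 basement membrane genes, 9 rose, 10 fell and 2 did not pass with WT, and 10 rose, 10 fell and 1 did not pass with SIRT5F101L. The shares called over all tested genes were 56.8% and 60.7%. Nid1, the nidogen that links laminin to type IV collagen, rose by 1.02 on the log2 scale with WT (SE 0.0729, edgeR adjusted p 2.61e-10). Lama3, a laminin chain, fell by 2.52 (edgeR adjusted p 7.14e-12). Smoc1, a SPARC-related protein of basement membranes, fell from 276 ± 13.7 to 47.3 ± 1.47 CPM (log2 fold change -2.545, edgeR adjusted p 7.7e-18).

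Of 12 collagen receptors, 5 rose, 4 fell and 3 did not pass with WT, and 6 rose, 5 fell and 1 did not pass with SIRT5F101L. Over all tested genes, 56.8% and 60.7% were called. Itga2 and Itga11 code for integrin subunits that bind collagen. Itga2 rose from 12.7 ± 1.118 to 75.6 ± 4.95 CPM with WT (edgeR adjusted p 1e-14). Itga11 fell from 174 ± 15.45 to 24.5 ± 1.73 CPM (adjusted p 2.43e-16). Itga1, a subunit that binds type IV collagen, fell by 0.90 on the log2 scale (adjusted p 6.57e-09). Antxr2, which takes up type VI collagen, rose by 0.98 (adjusted p 6e-11).

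Of 10 tested matrix proteins that bind types VI, XII or XIV, 1 rose, 7 fell and 2 did not pass with either plasmid, where 28.1% (WT) and 30.7% (SIRT5F101L) of all tested genes fell. The median log2 fold change was -1.09 with WT and -1.14 with SIRT5F101L, against -0.013 and -0.017 over all genes. Comp fell from 2044 ± 234 to 213 ± 10.9 CPM with WT (edgeR adjusted p 1.28e-17), and Matn3, a matrilin that links type VI filaments to other matrix, fell from 44.7 ± 1.46 to 3.86 ± 0.96 CPM (adjusted p 3.33e-15). Dcn (decorin), a small proteoglycan that binds type VI and XIV collagen, was the 1 that rose, from 414 ± 12.01 to 1125 ± 90.4 CPM (adjusted p 5.08e-13). Bgn, also listed, was at 0 in every library and was not tested. Matn1 and Comp are also in the list of chondrocyte markers.

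Of 19 tested genes for collagen folding and export, 2 rose, 11 fell and 6 did not pass with WT, and 3 rose, 12 fell and 4 did not pass with SIRT5F101L. Over all tested genes, 28.1% fell with WT and 30.7% with SIRT5F101L. Serpinh1, the HSP47 chaperone of triple helices, fell from 2334 ± 72.5 to 808 ± 39.2 CPM with WT (edgeR adjusted p 3.46e-13). The prolyl 3-hydroxylases went apart, with P3h3 lower by 0.71 (-0.71, adjusted p 2.23e-08) and P3h2 higher by 1.43 (adjusted p 7.57e-12). Colgalt2, a collagen galactosyltransferase, rose (log2 fold change 1.005, edgeR adjusted p 0.00567) from a low level of 1.47 ± 0.77 CPM.

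All 9 tested proteases with type IV or VI collagen among their known substrates changed with either plasmid, 2 upwards and 7 downwards. Over all tested genes, 56.8% were called with WT (28.1% lower) and 60.7% with SIRT5F101L (30.7% lower). Mmp3 (stromelysin-1) rose from 16.4 ± 1.55 to 1534 ± 147 CPM with WT (log2 fold change 6.55, SE 0.102, edgeR adjusted p 3.28e-20). Mmp10 (stromelysin-2) rose from 0.2215 ± 0.23 CPM, close to the 3-count floor of 0.124 to 0.199 CPM, to 6.25 ± 0.60 CPM. Ctss (cathepsin S) fell by 1.58 and Mmp11 by 1.20 on the log2 scale (edgeR adjusted p 1.66e-09 and 2.35e-09).

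**Figure D5:**
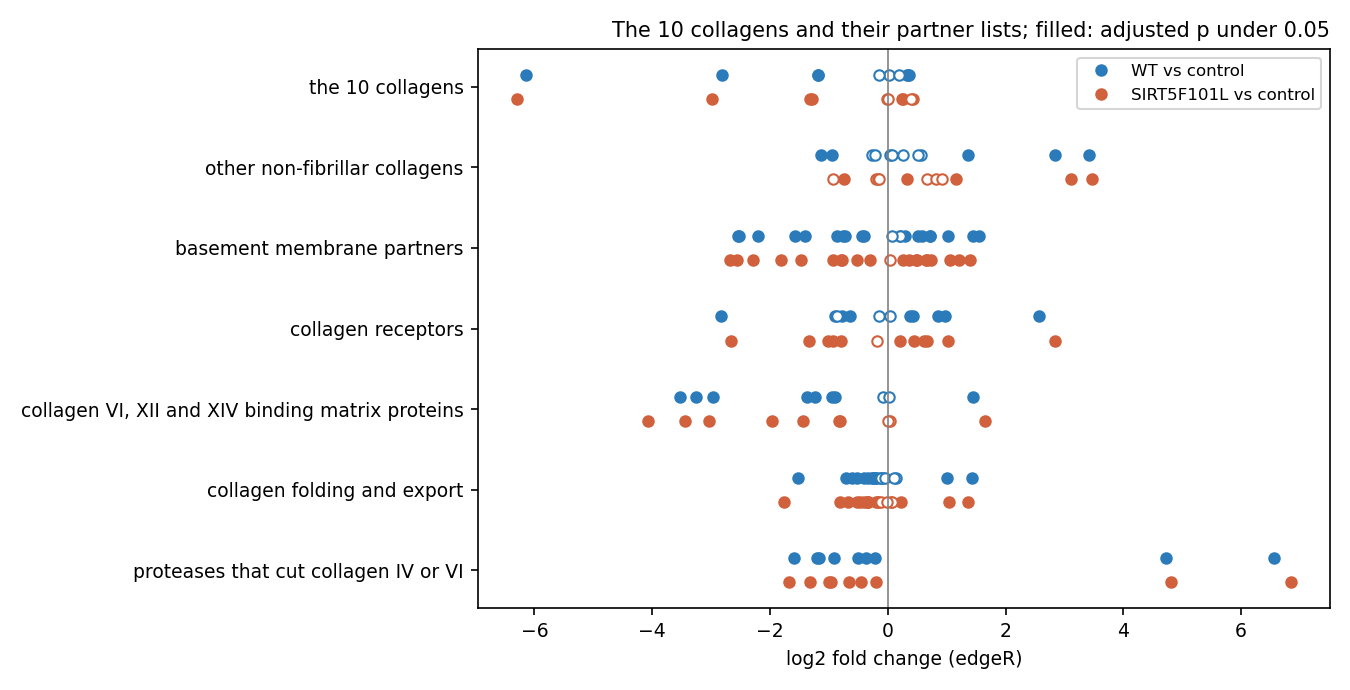
Log2 fold change of the 10 collagens and of the genes in 6 partner lists (rows) against control (horizontal axis); each point is a gene, blue for WT and orange for SIRT5F101L, and filled where the edgeR adjusted p is under 0.05. Points reach from -6.30 (Col8a2) to 6.85 (Mmp3), and in the row of type VI, XII and XIV binding proteins 7 of 10 fell.

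Markers of other cells moved with these results to different degrees. Against control, 56.8% of all tested genes were called with WT (28.7% higher, 28.1% lower) and 60.7% with SIRT5F101L (30% higher, 30.7% lower). Endothelial markers, of cells that make type IV, VIII and XV collagen in vessels, summed to 3.77 to 5.555 CPM in all libraries, and edgeR and DESeq2 called 0 of 5 tested in any comparison. At an unadjusted p under 0.05 there was 1, with SIRT5F101L against control. Of 8 pericyte and smooth muscle markers, 3 rose and 3 fell with WT, 4 rose and 3 fell with SIRT5F101L, and their sum was 1052 to 1133 CPM in control, 638 to 720 CPM in WT and 568 to 643.5 CPM in SIRT5F101L libraries. Cspg4 is also in the receptor list. Between the plasmids edgeR called 0 of the 8 (3 at an unadjusted p under 0.05), while DESeq2, and edgeR without SIRT5F101L replicate 1, called Rgs5 higher and Acta2 lower with SIRT5F101L. Acta2, named after its values were seen, fell from 776.5 ± 68.0 to 135 ± 3.69 CPM with WT.
Of 5 tested fibroblast, tendon and perichondrium markers, cells in which collagens VI, XII and XIV are known, 2 rose and 3 fell with either plasmid. Their sum was 560 to 590 CPM in control, 350 to 380 CPM in WT and 388 to 434 CPM in SIRT5F101L libraries, and Scx and Tnmd were listed at 0. A listed 0 need not mean an absent transcript here, as all 2414 IDs on the X chromosome were at 0. Between the plasmids edgeR called 0 of the 5 (2 at an unadjusted p under 0.05), DESeq2 called Postn higher with SIRT5F101L, and edgeR without SIRT5F101L replicate 1 called Postn and Pdgfra higher. Of 13 chondrocyte markers, 2 rose and 11 fell with WT, and 1 rose and 11 fell with SIRT5F101L. Over all tested genes, 28.1% fell with WT and 30.7% with SIRT5F101L. Between the plasmids, 1 of the 13 was lower with SIRT5F101L, Col11a2 (log2 fold change -0.63, edgeR adjusted p 0.0339, no overlap), and 8 had an unadjusted p under 0.05, as did 11.9% of all genes. Col2a1, Acan and Col9a1 were lower too by DESeq2 and with the length offset (4 of 13 each), where 0.4% and 0.126% of all genes were called. Without SIRT5F101L replicate 1 the count was 5, with Col9a2 added, in a fit that called 15.2% of all genes. The median of the 13 in the edgeR comparison was -0.34. Of 7 macrophage markers 1 rose and 6 fell with either plasmid (summed 169 to 204, 130 to 149 and 139 to 178 CPM). Of 3 tested Schwann cell markers 1 rose and 1 fell with either plasmid (summed 3.235 to 6.125 CPM). Of 4 osteoblast markers 1, Spp1, rose and 2 fell, with sums of 1849 to 2023 CPM in control and 13240 to 16770 CPM in the plasmid libraries. Spp1 made nearly all of these sums, with means of 1937 CPM in control, 14550 in WT and 15440 in SIRT5F101L. The 2 that fell were Ibsp (14.7 CPM in control, 0.284 in WT, 0.146 in SIRT5F101L) and Sp7 (3.16, 0.992 and 1.11 CPM). The part of any of these cell types in the collagen results was not tested.

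The genes whose log2 CPM followed each collagen most closely over the 12 libraries are given as a description, since all libraries share the 3 groups. Pearson's r was 0.999 for Col8a2 with Npr3, 0.998 for Col6a2 with Spg20, 0.997 for Col6a1 with Numbl and 0.992 for Col14a1 with Cnksr3. It was 0.981 for Col8a1 with Kif3b, 0.962 for Col6a3 with Dab2ip, 0.931 for Col4a1 with Mgat1 and 0.912 for Col12a1 with Itpr1. The lowest values were 0.883 for Col4a2 with Il17ra and 0.849 for Col15a1 with Agfg2.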

How the data were processed

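The authors deposited whole-number counts per Ensembl gene ID for each library. The libraries were poly(A)-selected and read as 150 bp pairs, per the labels. The submitters' processing notes name FastQC 0.11.9, HISAT2 2.2.1, HTSeq 2.0.2, DESeq2 1.38.3 and the build GRCm39. The annotation and strand setting are not given in the sources used here. The members and gene lists were chosen with earlier results of these data known.

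From the counts, edgeR 4.0.16 (R 4.3.3) fitted 1 mean per group over 12 libraries, with TMM scaling, its expression filter by group (14253 genes left) and 9 residual degrees of freedom. Tests were 2-sided quasi-likelihood tests, and a gene was called where its p, adjusted over all genes tested by Benjamini-Hochberg, was under 0.05. A standard error is the log2 fold change divided by the square root of F, and intervals are 95% intervals of the t distribution. CPM are TMM-scaled, and 3 counts (0.124 to 0.199 CPM) were taken as the floor, which covers counting error only. Ratios were log2((count + 0.5)/(count + 0.5)), compared by exact permutation over 70 arrangements of 8 libraries and adjusted over 15 tests.

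Partner genes are named by rule: the 2 highest and 2 lowest log2 fold changes of WT against control among called genes of each list with a mean of at least 1 CPM, and any called between the plasmids; 1 gene that the rule names is not reported here. For each collagen the most alike gene, with a mean of at least 5 CPM, is named too. Lengths and exon overlaps came from GENCODE M21 and upstream windows from RefSeq, both of the earlier build GRCm38, with 8 of the 10 genes in the RefSeq table. No stretch of 100 bases at 95% identity was found in another gene's transcripts for any of the 10. On simulated counts of WT against control (13866 genes tested), edgeR called 96% of 100 genes changed 2-fold and 84% of 100 changed by 0.5 on the log2 scale, with 10 false calls. The simulation drew every gene from control means with 1 common dispersion (0.00844), and changed few genes, none of them low in counts. In the real data genes differ in spread and most were called against control, so these rates do not carry over to them or to low-count collagens. Alternatives were upper-quartile or RLE scaling, a filter at a mean of 1 CPM or none, a robust prior, a length offset (loess span 0.5), fits of 8 libraries, DESeq2 1.42.0, 2 or 0 added in ratios, and leaving out each library.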

Additional observations from a re-analysis of the deposited data

Results flagged for a closer look

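Among 4 libraries of 1 group, 2 collagen values stood apart from the others by Dixon's 95% criterion. Col14a1 in control replicate 4 was at 12.6 CPM, with the other control libraries at 15.2 to 15.6 CPM. Col15a1 in WT replicate 3 was at 3.18 CPM, with the other WT libraries at 4.04 to 4.22 CPM. Of 45 groups of values screened, 2 were found, where chance gives about 2.25. Control replicate 4 was still far above the highest plasmid library for Col14a1, at 2.55 CPM. No cause of either value was tested.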

How the results depend on the processing

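No paired analysis was possible because the labels give no replicate numbers that groups share. Against control, the number of collagens called was 7 with WT when any 1 library was left out (7 to 7), and 5 to 8 with SIRT5F101L. Between the plasmids it was 0 to 1, with 1 without SIRT5F101L replicate 1. All genes called ran from 7549 to 8747, from 8030 to 9179, and between the plasmids from 0 to 2213. That last number was 6 in the main analysis, 354 with no filter, 2 with a robust prior, 18 with the length offset, 2 with 8 libraries and 43 with DESeq2. Without 1 library it was 2213 without SIRT5F101L replicate 1, 3 without control replicate 2 and 0 without any 1 of the others. Reversed values were near 0 except for Col12a1 with the length offset. For Col4a2 with SIRT5F101L they were 0.000514 (RLE), 0.0128 (8 libraries) and 7.12e-05 (DESeq2), with -0.084 to 0.034 when 1 library was left out. For Col4a2 with WT they were -0.0208 (upper quartile) and -0.0779 (length offset), with -0.045 to 0.073. For Col12a1 with SIRT5F101L they were -0.0373 (upper quartile) and -0.268 (length offset), with -0.071 to 0.0882. For Col6a3 with SIRT5F101L the length offset gave -0.021. Between the plasmids, Col4a2 ran from -0.081 to 0.00381 and Col14a1 from -0.343 to 0.000514. Ratios with nothing added to the counts, against control, were -0.322 and -0.274 (Col4a2 to Col4a1, WT then SIRT5F101L), 1.533 and 1.555 (Col6a3 to Col6a1), -6.473 and -6.734 (Col8a2 to Col8a1), and -2.677 and -3.127 (Col14a1 to Col12a1), all at an adjusted p of 0.0536. They missed the threshold because 1 fewer of the 15 tests, Col14a1 to Col12a1 between the plasmids (-0.450), was at its smallest p. The same 0.0536 arose for WT without WT replicate 2, 3 or 4. Without 1 library, WT against control ran from -0.359 to -0.299 (Col4a2 to Col4a1), -0.02 to 0.011 (Col6a2 to Col6a1), 1.483 to 1.556 (Col6a3 to Col6a1), -6.540 to -6.362 (Col8a2 to Col8a1) and -2.745 to -2.554 (Col14a1 to Col12a1). Between the plasmids they ran from 0.007 to 0.058 (Col6a2 to Col6a1), -0.03 to 0.072 (Col6a3 to Col6a1), -0.356 to -0.177 (Col8a2 to Col8a1) and -0.579 to -0.224 (Col14a1 to Col12a1). Apart from the construction named for 0.0536, the cause of these changes was not tested. Counts of 16 to 109 per plasmid library limit Col8a2, Col14a1 and Col15a1.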
